A study of Mus musculus with 12 samples.

Results

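The 7 genes Hmga1, Hmga2, Igf2bp1, Igf2bp2, Igf2bp3, Lin28a and Lin28b, of 21631 protein-coding genes on chromosomes 1 to 19 and X, were followed through H3K27ac ChIP-seq peak lists of mouse cells. They were listed by name, and each was read over its GRCm38 span with 5 kb on each side. The list was selected on results of these libraries: Igf2bp1 was 1 of 22 loci that passed limma as higher in Azin2-/- in covered length when peaks were kept at a deposited q of 0.01 or less, and the other 6 genes were listed with it as members of the same growth program. Differences between the genotypes at these genes are therefore given as descriptions, without a test. H3K27ac is an acetyl mark on histone H3 found at active promoters and enhancers. The cells were adipocyte progenitors from subcutaneous fat of Azin2-/- and wild-type mice, with 3 libraries per genotype (Azin2-/- replicates 1, 2 and 8, wild-type replicates 1, 2 and 2b). Azin2 encodes an antizyme inhibitor, a regulator of polyamine synthesis, and the sources used here do not describe how the gene was disrupted. Both genotypes had the same culture: 1 week in 10% serum and 4.5 g/L glucose, 2 days in rosiglitazone and dexamethasone at 1 µM each with 0.5 mM IBMX and insulin at 5 µg/ml, then 5 days in insulin alone, with fresh medium every 2 days. Whether replicates are separate animals, and whether wild-type 2 and 2b are 1 sample or a pair, is not stated in the labels, so n = 3 counts libraries and p-values measure only the spread between these libraries.

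HMGA1 and HMGA2 are small chromatin proteins that bind AT-rich DNA through AT-hooks and bend it, and HMGA2 is known in fat for its part in the expansion of preadipocytes. IGF2BP1, IGF2BP2 and IGF2BP3 are RNA-binding proteins that control the stability, transport and translation of messages such as that of Igf2, and LIN28A and LIN28B bind the precursors of let-7 microRNAs and block their maturation. Mature let-7 in turn represses Hmga2, Igf2bp and Lin28 messages, so that high LIN28 with low let-7 goes with the fetal state and the reverse with the adult one.

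The let-7 family is shown first because its shared seed is what ties these genes together. Mature sequences were taken from RefSeq (GRCm38.p6 tables), and capitals mark the seed, bases 2 to 8. All 9 family members in the tables, miR-98 included, carried the same seed, GAGGUAG. The 4 printed are those whose gene loci held a strong peak in 2 or more libraries.
mmu-let-7i-5p: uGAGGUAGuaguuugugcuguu
mmu-let-7e-5p: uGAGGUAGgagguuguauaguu
mmu-let-7b-5p: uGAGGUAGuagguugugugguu
mmu-let-7c-5p: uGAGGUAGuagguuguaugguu

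Start sites of Hmga1, Hmga2 and Igf2bp2 lay at a peak held by all 6 libraries. The 250 bases before a tabled start of each are therefore shown, 5′ to 3′ on the gene's own strand (RefSeq, GRCm38.p6). Hmga1 had 2 tabled starts, and the window of the first, 27556574, is printed. Capitals mark the GC box GGGCGG on either strand. The Hmga1 window is chr17:27556324-27556573 on the plus strand, that of Hmga2 is chr10:120476470-120476719 on the minus strand, and that of Igf2bp2 is chr16:22163300-22163549 on the minus strand.
Hmga1: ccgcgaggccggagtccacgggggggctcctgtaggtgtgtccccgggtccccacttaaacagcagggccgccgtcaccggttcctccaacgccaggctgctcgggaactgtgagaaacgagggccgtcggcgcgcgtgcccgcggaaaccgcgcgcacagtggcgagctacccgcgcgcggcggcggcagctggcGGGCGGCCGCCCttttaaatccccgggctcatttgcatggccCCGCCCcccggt
Hmga2: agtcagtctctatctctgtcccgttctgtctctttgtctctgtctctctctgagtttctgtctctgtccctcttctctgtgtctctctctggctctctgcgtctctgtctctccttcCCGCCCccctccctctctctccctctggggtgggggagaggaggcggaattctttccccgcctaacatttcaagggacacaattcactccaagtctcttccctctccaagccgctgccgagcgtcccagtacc
Igf2bp2: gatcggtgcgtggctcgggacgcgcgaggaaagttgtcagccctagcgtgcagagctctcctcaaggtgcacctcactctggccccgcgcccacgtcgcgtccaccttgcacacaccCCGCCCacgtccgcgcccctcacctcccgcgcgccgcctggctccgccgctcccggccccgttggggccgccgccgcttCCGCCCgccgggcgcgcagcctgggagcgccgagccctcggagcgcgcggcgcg

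These 3 windows differ in composition. The Igf2bp2 window held 40 CG dinucleotides and the Hmga1 window 34, against a median of 10 over 21045 windows of the same length, whereas the Hmga2 window held 8. Hmga2 had a run of 23 bases made only of C and T, and the Igf2bp3 window had a longer one, of 35. How common such runs are over all windows was not counted. GC boxes numbered 3 at Hmga1, with first bases 54, 48 and 12 bases before the start and the upstream pair abutting within GGGCGGCCGCCC. Igf2bp2 had 2, at 133 and 54 bases, and Hmga2 had 1, at 133 bases. The window of the second tabled Hmga1 start, 27556604, held 4. A GC box occurred in 43.1% of all windows, so its presence is common.

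The windows of Igf2bp3 and Lin28b each held an E-box, the letters CACGTG, which occurs in 6.7% of all windows. The 30 bases around it are shown as a feature that this pair shares and that the choice of genes did not use, picked out after the windows were read. Their coordinates are chr6:49214960-49214989 and chr10:45470233-45470262, both on the minus strand, with the E-box in capitals.
Igf2bp3: gctgggattcctCACGTGagacgttgattt
Lin28b: aattgacagagtCACGTGtgctcaggggcc
The E-box began 23 bases before the Igf2bp3 start and 49 bases before the Lin28b start. Both windows also held a CCAAT box (CCAAT on either strand, in 35.6% of windows). The letters TATAAA (11.7% of windows) and TGACTCA (4.09%) were in none of the windows of the 6 genes in the table. The Lin28a window held none of the 5 motifs searched. Igf2bp1 had no entry in the promoter table. A match is a description of the letters in these windows.

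Peaks were compared among the 30000 of smallest p in each library, called strong below. Deposited lists held 742335 to 1217494 peaks, 13843 to 54847 of them at a q of 0.05 or less, and the strong peaks covered 16.9 Mb in wild-type replicate 1 to 28.9 Mb in Azin2-/- replicate 1. Only in Azin2-/- replicate 1 did 30000 peaks reach that q. In the other 5 libraries 13843 (Azin2-/- replicate 8) to 21544 (wild-type replicate 1) peaks did, and the rest of their strong peaks did not. Of 10 adipocyte markers, Plin1 and Cebpa had a strong peak at a gene end in all 6 libraries and Adipoq, Cd36, Cidec and Adig in none, Adipoq having no strong peak in its whole window. Of 10 preadipocyte markers none had one in all 6, and Pdgfra, Ly6a, Dpp4 and Pi16 had none at a gene end in any library. Across 11670 loci with a mean scaled cover of at least 500 bp, no locus differed between genotypes by limma with Benjamini-Hochberg adjustment, with 506 (4.34%) higher and 249 (2.13%) lower at an unadjusted p under 0.05.

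A strong peak lay in the window in all 6 libraries for 5 of 7 genes, Hmga1, Hmga2 and the 3 Igf2bp genes, against 31.6% of all loci and 54.8% of genes of 40 kb or more. At a gene end, within 1 kb, 3 of 7 genes had one in every library (Hmga1, Hmga2 and Igf2bp2), against 18% of all genes. Lin28b had a strong peak in 5 libraries and Lin28a in 3. The windows held 89 strong peaks in 41 merged regions, of which 27 were in 1 library and 3 in all 6. Those 3 were the start regions of Hmga1, Hmga2 and Igf2bp2. Summits within 2 kb of the start site, or for Igf2bp1 of the higher-coordinate gene end, made up 40 of the 89, with 7 of 12 at Hmga1, Hmga2 and Igf2bp3 each, 9 of 23 at Igf2bp1, 7 of 18 at Igf2bp2, 3 of 5 at Lin28a and 0 of 7 at Lin28b.

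**Figure D1:**
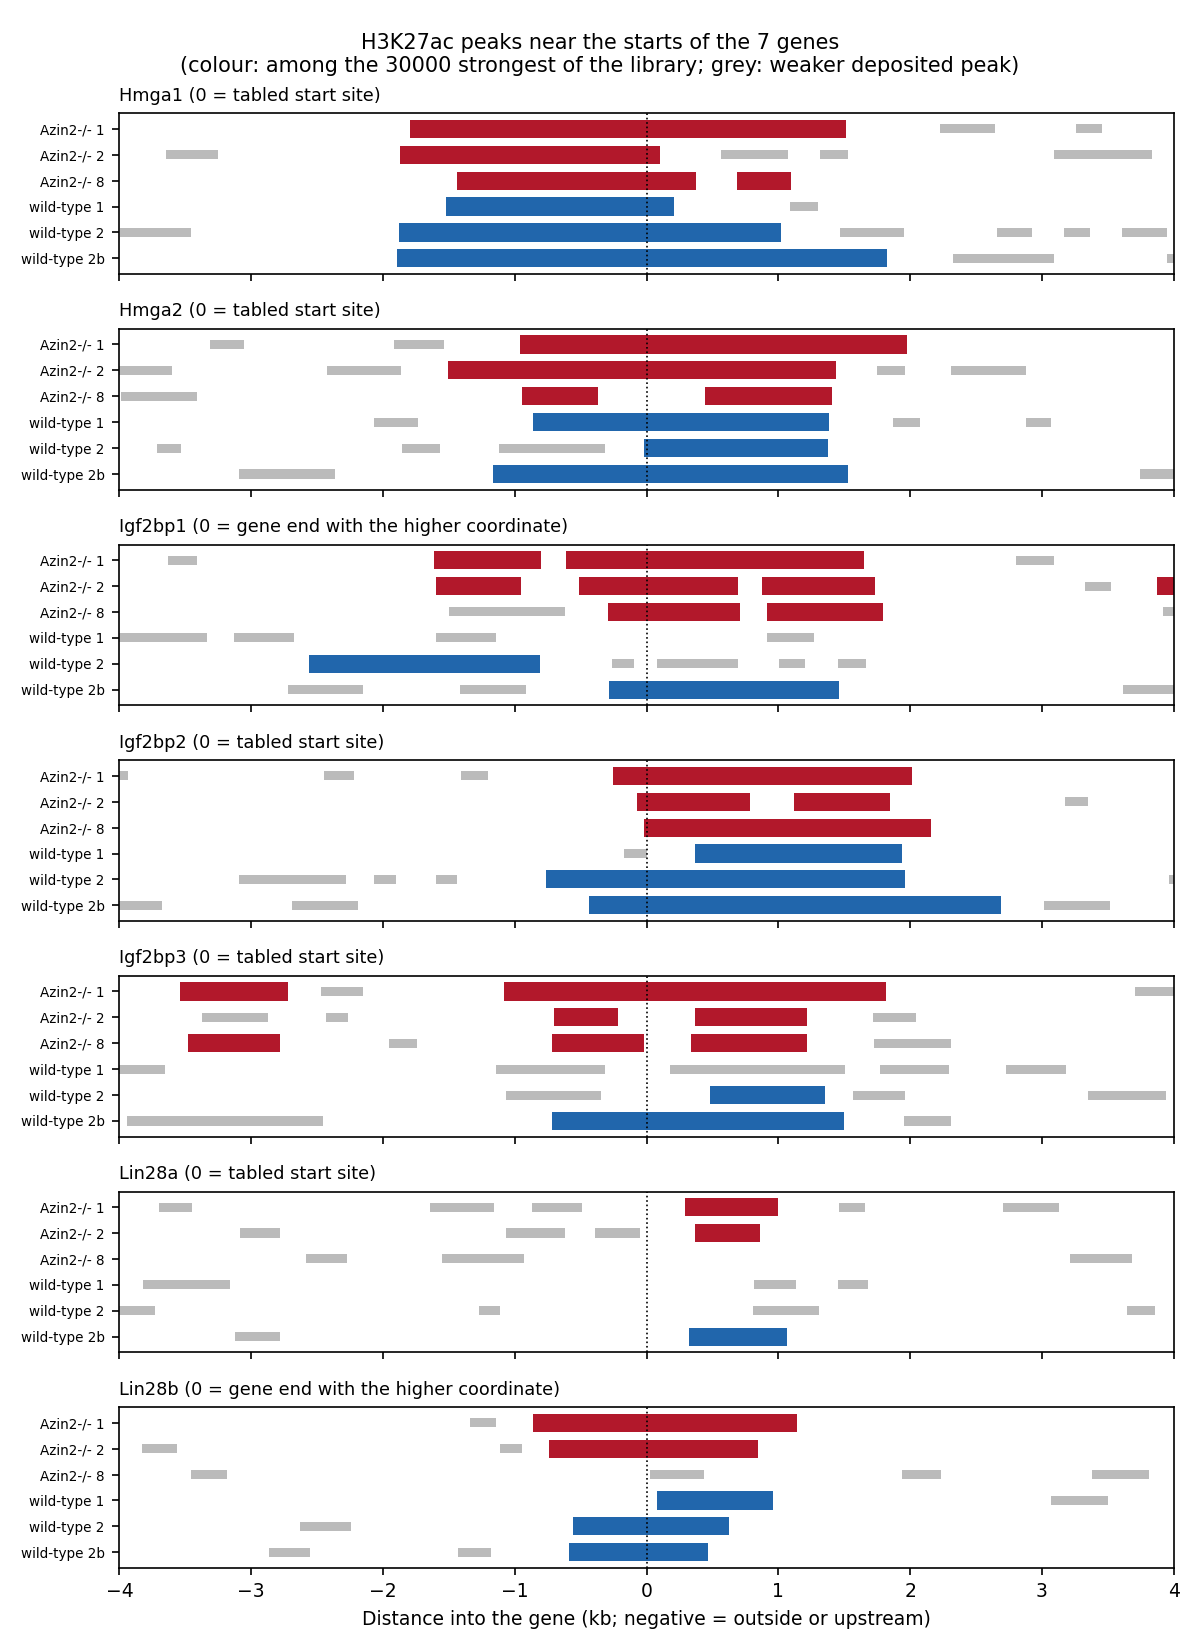
Deposited H3K27ac peaks within 4 kb of the tabled start of each gene, or of the higher-coordinate gene end for Igf2bp1 and Lin28b. There is 1 track per library, by distance in kb with the gene to the right. The Lin28b end lies 16.1 kb from its tabled start. Coloured bars are strong peaks (red Azin2-/-, blue wild-type) and thin grey bars weaker deposited peaks. Hmga1, Hmga2 and Igf2bp2 carry a coloured bar near 0 in all 6 libraries, whereas wild-type replicate 1 has none at Igf2bp1 and Igf2bp3, and Lin28a has one in 3 libraries.

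Hmga1 lies on chromosome 17 from 27556574 to 27563672. Its start region, chr17:27554683-27558402, was held by all 6 libraries and the start site itself was covered in all 6. Strong peaks within 2 kb of the start covered 3315, 1973 and 2223 bp in Azin2-/- replicates 1, 2 and 8, and 1728, 2904 and 3720 bp in wild-type replicates 1, 2 and 2b. The groups overlap, and the longest and the shortest value are both wild-type. By the authors' p within each list, the strongest Hmga1 start peak ranked 825, 1515 and 1804 in the Azin2-/- libraries and 8306, 5165 and 6199 in the wild-type ones. Because the lists differ in length, such ranks cannot show whether a peak changed between libraries. A second region, chr17:27564903-27566457, held by Azin2-/- replicates 1 and 2 and wild-type replicate 2b, overlapped the neighbouring gene AI413582, so cover at Hmga1 includes it.

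Hmga2, on chromosome 10 from 120361268 to 120476469, is a gene of 115.2 kb with its acetylation at the start. The start region chr10:120474493-120477978 was held by all 6 libraries, with 2937, 2951 and 1542 bp covered in Azin2-/- replicates 1, 2 and 8 and 2248, 1402 and 2692 bp in wild-type replicates 1, 2 and 2b. The groups overlap. In Azin2-/- replicate 8 a pair of peaks flanked the start site and left it uncovered, and in the other 5 libraries a strong peak ran across it. The other 5 regions of the gene were each held by 1 library.

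Igf2bp2, on chromosome 16 from 22059009 to 22163299, had the third region common to all libraries, chr16:22160608-22164061. It covered 2272, 1595 and 2177 bp in Azin2-/- replicates 1, 2 and 8 and 1574, 2722 and 3127 bp in wild-type replicates 1, 2 and 2b. The groups overlap here as well. Most of the covered length lay downstream of the start, which was itself covered in 5 libraries. Of its 10 regions 7 were in 1 library each, and Azin2-/- replicate 2 alone had 4 of these, inside the gene. Intragenic cover of that library is what set it apart at this locus.

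Igf2bp3, on chromosome 6 from 49085218 to 49215469, had its start region, chr6:49213134-49216033, in all but 1 library. Cover there was 2900, 1340 and 1574 bp in Azin2-/- replicates 1, 2 and 8 and 0, 877 and 2215 bp in wild-type replicates 1, 2 and 2b. Wild-type replicate 1 held only weaker peaks there, the best at rank 99829 of its list with a −log10 q of 0.73. Within Azin2-/- replicate 1 its start peak, at rank 344 with a deposited fold of 19.9 over local background, was the strongest of the 7 genes, as it was in Azin2-/- replicate 8, at rank 1021. Hmga2 came first in Azin2-/- replicate 2 (rank 1227) and Igf2bp2 in wild-type replicates 1, 2 and 2b (ranks 2082, 926 and 5529). Azin2-/- replicates 2 and 8 had a peak on each side of the start and none across it. A flanking region, chr6:49217675-49218492, was held by Azin2-/- replicates 1 and 8 alone.

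**Figure D2:**
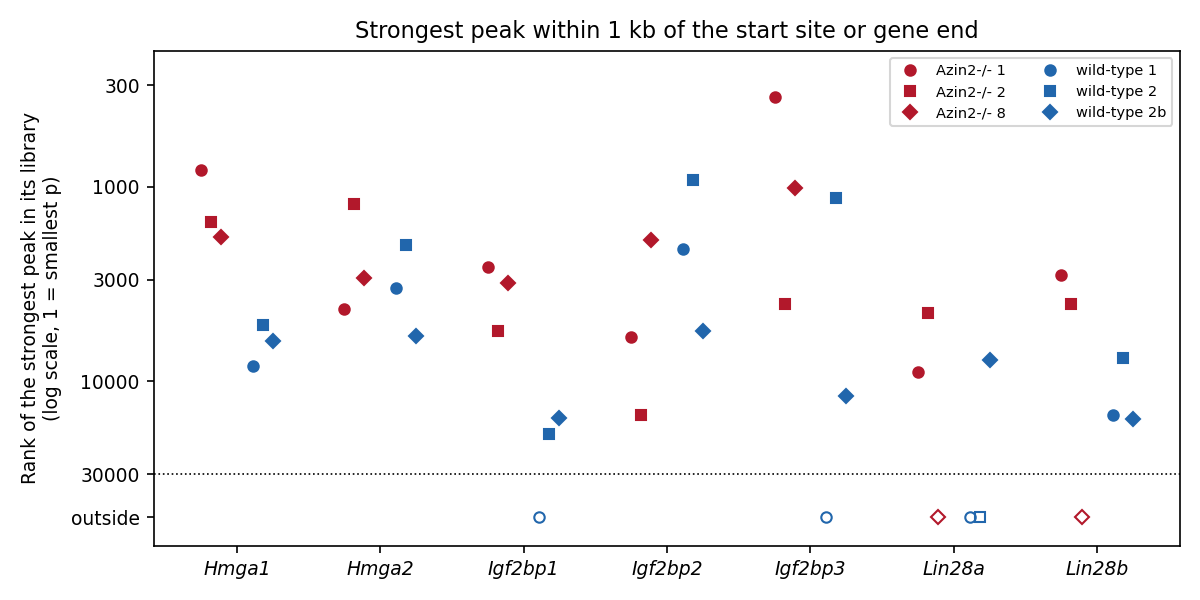
Rank, within its own library's deposited list, of the strongest peak within 1 kb of the start site (Igf2bp1 and Lin28b: the higher-coordinate gene end), on a log axis with strong ranks at the top. Filled symbols are strong peaks, and open symbols, at Igf2bp1, Igf2bp3, Lin28a and Lin28b, lie outside the 30000. Igf2bp3 reaches rank 344 in Azin2-/- replicate 1; ranks describe each list and are not compared between libraries.

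Igf2bp1 lies on chromosome 11 from 95957163 to 96005944, and its strand is not in the tables used. Of its 10 regions 3 were held by 4 or more libraries or by 1 whole genotype. At the higher-coordinate end, chr11:96004149-96006554, cover was 2260, 2068 and 1890 bp in Azin2-/- replicates 1, 2 and 8, 1746 bp in wild-type replicate 2b and 0 bp in wild-type replicates 1 and 2. Both of the latter had weaker deposited peaks there. The adjoining region outside the gene, chr11:96006746-96008508, was held by wild-type replicate 2, with 1758 bp, and by Azin2-/- replicates 1 and 2, with 812 and 644 bp, so wild-type replicate 2 had a strong peak beside this gene end. Inside the gene, 15.0 kb from that end, chr11:95990025-95991856 was held by 5 libraries and missed by wild-type replicate 1. The third region, chr11:95971792-95973203, lay 33.5 kb from the end and was held by the 3 Azin2-/- libraries, with 954, 1158 and 852 bp in replicates 1, 2 and 8, and by no wild-type library. Wild-type replicates 1 and 2 had a weaker peak there, with a −log10 q of 0.12 and 0.5, and wild-type replicate 2b had no deposited peak.

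**Figure D3:**
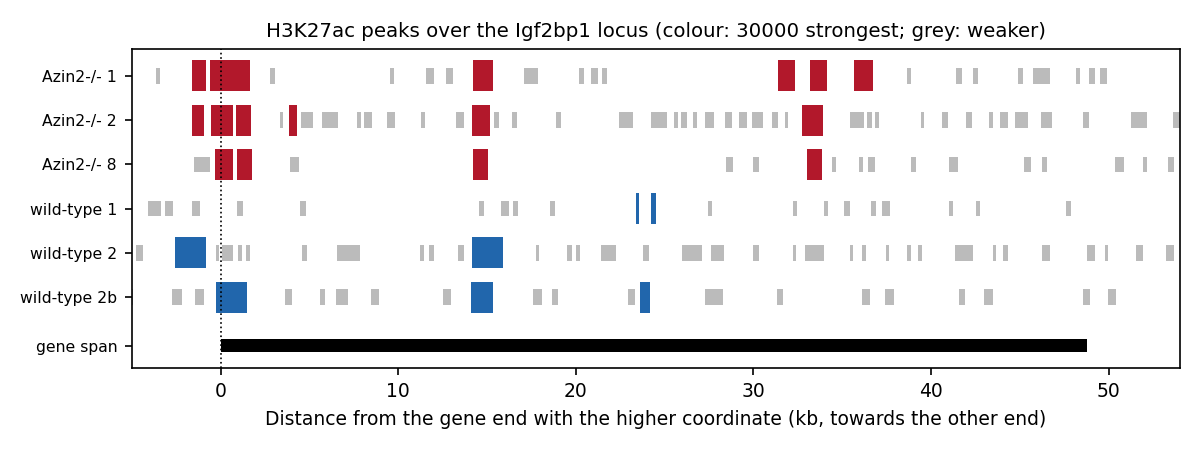
All deposited peaks over Igf2bp1 and 5 kb each side, by distance in kb from the higher-coordinate gene end, with strong peaks in red (Azin2-/-) or blue (wild-type), weaker ones in grey and the gene span in black. Red bars of all 3 Azin2-/- libraries stand at about 0, 15.0 and 33.5 kb, and no blue bar stands at 33.5 kb. Igf2bp1 was selected for higher cover in Azin2-/-, so this order is not independent of that choice.

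Lin28a, on chromosome 4 from 134003330 to 134019196, was the least covered in bp. Just inside its start, the 1 region shared by more than 1 library, chr4:134017747-134018521, was held by Azin2-/- replicates 1 and 2, with 704 and 495 bp, and by wild-type replicate 2b, with 747 bp. The other 3 libraries had no strong peak in the whole window. A peak of Azin2-/- replicate 1 in the window overlapped the neighbour Dhdds and is counted in its cover.

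Lin28b, on chromosome 10 from 45376617 to 45486314, was acetylated away from its tabled start. No library had a strong peak within 1 kb of that start, as for 42.8% of 17274 genes with a tabled start. The peak stood 16.1 kb upstream, at the higher-coordinate end of the gene, chr10:45485170-45487178. It covered 2009 and 1590 bp in Azin2-/- replicates 1 and 2, 0 bp in Azin2-/- replicate 8, and 882, 1180 and 1053 bp in wild-type replicates 1, 2 and 2b. Azin2-/- replicate 8 had a weaker peak there, at rank 96869 of its list. The E-box printed above lies at the tabled start, which carried no strong peak.

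Covered length over the whole window was next compared between genotypes, after scaling each library to the same total cover of strong peaks. Scaled cover is in bp, and a difference is the mean log2 of scaled cover plus 500 bp in Azin2-/- minus that in wild-type. Of the 7 genes 6 reached the minimum mean of 500 bp. Their median difference was 0.10, against 0.07 over all 11670 loci, and 4 of 6 were positive, against 54.6% of all loci. As a share of window length, mean cover was highest at Hmga1 (19.7%), a gene of 7.1 kb. It was 6.69% at Igf2bp1, 3.22% at Igf2bp2, 2.09% at Hmga2, 1.93% at Lin28a, 1.49% at Igf2bp3 and 1.03% at Lin28b.

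**Figure D4:**
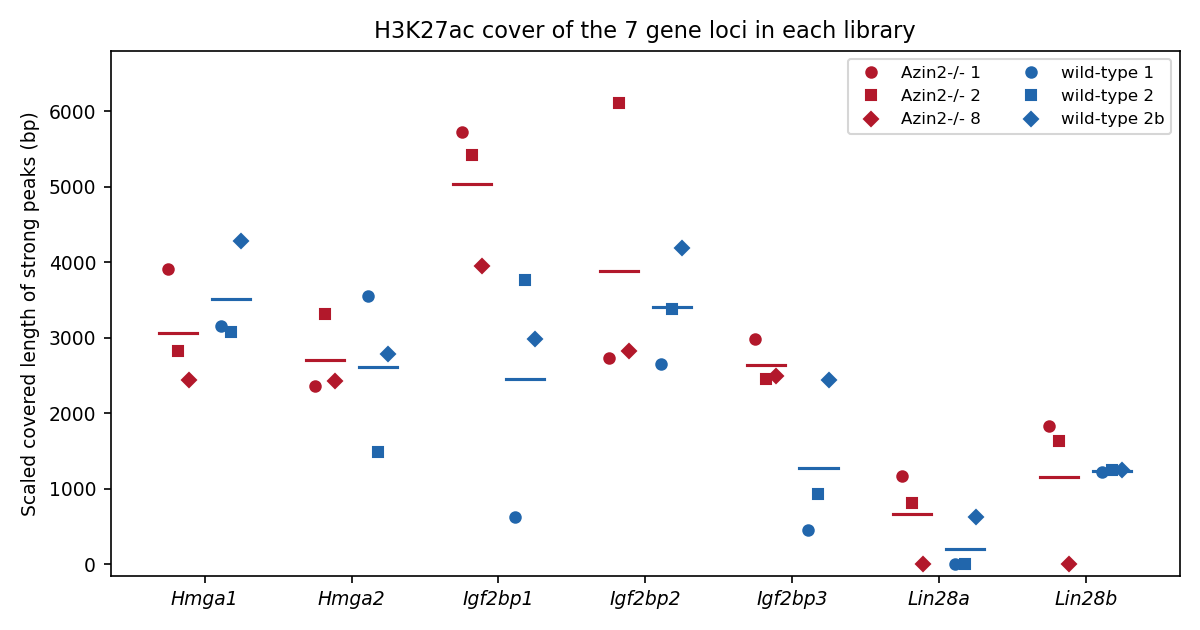
Scaled covered length of strong peaks in bp at each gene, 1 symbol per library (red Azin2-/-, blue wild-type) with a line at the mean of each genotype. At Igf2bp1 and Igf2bp3 the red symbols lie above the blue ones, by a narrow margin at both, and at the other 5 genes they overlap.

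The HMGA pair overlapped between genotypes among the 30000 strongest peaks. Scaled cover of Hmga1 was 3915, 2827 and 2446 bp in Azin2-/- replicates 1, 2 and 8 and 3158, 3078 and 4284 bp in wild-type replicates 1, 2 and 2b, a log2 difference of -0.18. Azin2-/- replicate 1 stood with the highest wild-type library. Among the 5000 strongest peaks every Azin2-/- library had more Hmga1 cover than any wild-type one, with a difference of 2.50. That order follows from where the cutoff lies. The wild-type start peaks, at ranks 8306, 5165 and 6199, fell outside it, and the Azin2-/- ones, at 825, 1515 and 1804, inside. At a q of 0.01 or less the difference was 0.78. Unscaled cover was then 4870, 2755 and 2223 bp in Azin2-/- and 0, 2904 and 3720 bp in wild-type. Wild-type replicate 1 had its start peak at a −log10 q of 1.88, just short of that threshold. Hmga2 had 2361, 3317 and 2427 bp against 3547, 1486 and 2786 bp, a log2 difference of 0.09, with the highest and the lowest value both in wild-type.

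Igf2bp1 and Igf2bp3 had higher scaled cover in every Azin2-/- library than in any wild-type one. This held for 2 of 7 genes, and the same order was found at 6.72% of all loci measured, and the opposite one at 4.93%. Igf2bp1 was selected for higher cover in Azin2-/- in these same libraries, so the 2 of 7 cannot be read against that share. Igf2bp1 had 5720, 5423 and 3947 bp in Azin2-/- replicates 1, 2 and 8 and 629, 3761 and 2980 bp in wild-type replicates 1, 2 and 2b, with means of 5030 ± 950 and 2457 ± 1630.3 bp (SD, n = 3). Wild-type replicate 1 was far below the rest, and Azin2-/- replicate 8 was close to wild-type replicate 2. The log2 difference was 1.10, with SDs of 0.26 and 1.03. It was 0.51 without wild-type replicate 1 and 1.39 with wild-type replicates 2 and 2b averaged as 1 sample. Igf2bp3 had 2989, 2449 and 2499 bp against 451, 930 and 2444 bp, with means of 2646 ± 298 and 1275 ± 1040.4 bp (SD, n = 3). Its Azin2-/- libraries were tightly grouped, and wild-type replicate 2b all but reached them. The log2 difference was 0.98. It was 0.61 without wild-type replicate 1 and 1.12 with wild-type replicates 2 and 2b averaged.

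Neither separation held without scaling. Unscaled, Azin2-/- replicate 8 had 3587 bp at Igf2bp1 and wild-type replicate 2b 3588 bp, and at Igf2bp3 the same libraries had 2271 and 2942 bp. No gene of the set was then separated, against 7.13% of loci higher and 2.49% lower. At a deposited q of 0.01 or less, the setting that brought Igf2bp1 into the list, 0.233% of 9437 loci were called higher, Igf2bp1 among them, and 0.0424% lower. Its unscaled cover was then 5160, 4861 and 2742 bp in Azin2-/- replicates 1, 2 and 8, 1790 bp in wild-type replicate 2 and 0 bp in wild-type replicates 1 and 2b.

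Marker cover was summed without scaling, a setting in which neither Igf2bp1 nor Igf2bp3 was separated. At the markers of 2 other cell types it was higher in every Azin2-/- library than in any wild-type one. Summed unscaled cover of 6 endothelial marker loci was 6552 to 8113 bp in Azin2-/- and 802 to 5516 bp in wild-type, with 5 to 6 of 6 and 1 to 5 of 6 loci holding a strong peak. Pecam1, Cdh5 and Tek had no strong peak at a gene end in any library. For 6 skeletal muscle markers the sums were 5920 to 8010 bp and 636 to 4596 bp, with 4 to 5 and 1 to 5 loci holding a peak, and Myf5 and Acta1 had none at a gene end. The sums overlapped between genotypes for macrophage and leukocyte (3279 to 5524 bp in Azin2-/- and 801 to 6095 bp in wild-type), mural and smooth muscle (2253 to 11177 and 2722 to 6175 bp), Schwann and nerve (1084 to 2333 and 0 to 1177 bp) and epithelial markers (2150 to 4523 and 1438 to 3308 bp). They also overlapped for the adipocyte markers (6701 to 9065 and 4166 to 8689 bp) and the preadipocyte markers (7989 to 28398 and 15363 to 23040 bp). No marker sum was compared after scaling. The part of any of these markers in the Igf2bp1 and Igf2bp3 values was not tested. The background level in fragments per bp that the deposited fold and p imply, used in place of depth, was lowest in wild-type replicate 1 (0.163) and highest in Azin2-/- replicate 8 (1.02), and its part was not tested either.

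Igf2bp2 overlapped between genotypes. Scaled cover was 2732, 6103 and 2823 bp in Azin2-/- replicates 1, 2 and 8 and 2648, 3387 and 4191 bp in wild-type replicates 1, 2 and 2b, a log2 difference of 0.10. Azin2-/- replicate 2, with its intragenic peaks, stood alone above the rest. Within the family, therefore, the log2 differences were 1.10, 0.10 and 0.98 for Igf2bp1, Igf2bp2 and Igf2bp3. Whether they differ from one another was not tested.

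The LIN28 pair had little cover. Lin28a had 1174, 809 and 0 bp in Azin2-/- replicates 1, 2 and 8 and 0, 0 and 621 bp in wild-type replicates 1, 2 and 2b, a mean of 434 bp that fell under the minimum. Lin28b had 1835, 1631 and 0 bp against 1216, 1251 and 1244 bp, a log2 difference of -0.36 that became 0.36 without Azin2-/- replicate 8. That library held no strong peak at either gene.

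**Figure D5:**
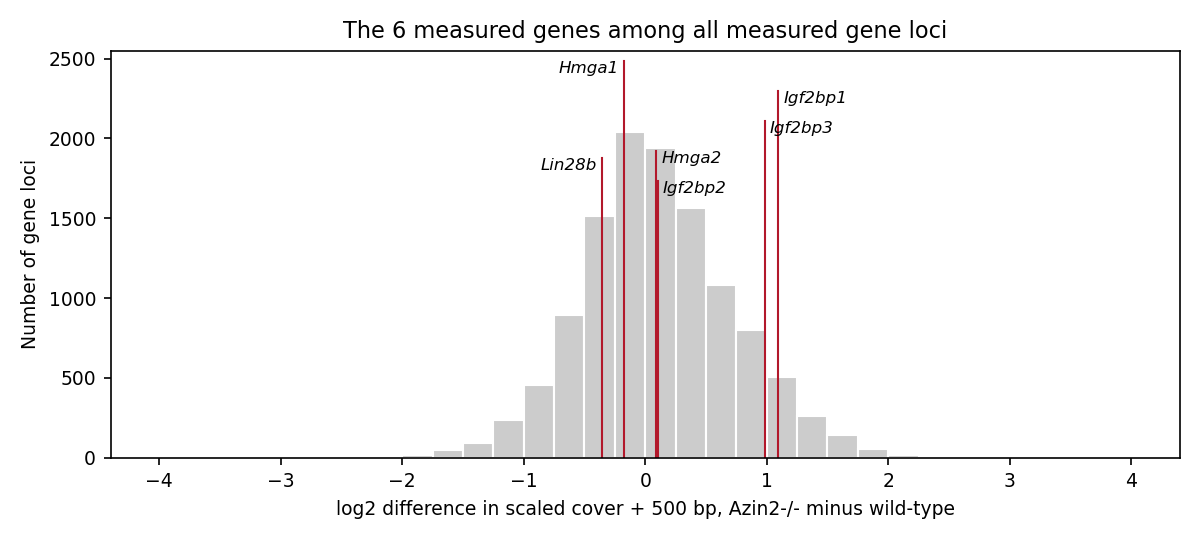
Number of gene loci by log2 difference in scaled cover plus 500 bp, Azin2-/- minus wild-type, for all 11670 loci measured (grey), with the 6 measured genes as red lines. Igf2bp1 (1.10) and Igf2bp3 (0.98) lie in the right part of the distribution and the other 4 near its middle.

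Loci with the most similar profile over the 6 libraries were named for each gene with a strong peak in at least 4, by Pearson's r of log2 scaled cover, as a description over 6 points that share libraries and scaling. Igf2bp1 was most like Ptf1a (r = 0.996) and Rbm4b (0.995), and Igf2bp3 most like Cbx8 (0.996) and Atad3a (0.993). For Hmga1 they were Arhgap27 (0.985) and Plpp6 (0.97), for Hmga2 Tmem217 (0.99) and Tcf12 (0.988), for Igf2bp2 Dclk2 (0.997) and Adhfe1 (0.981), and for Lin28b Ptpn3 (0.997) and Dazl (0.991). An r above 0.95 was found with 170 of 11637 loci for Igf2bp1, 79 of 11664 for Lin28b and 71 of 11653 for Igf2bp3. For Hmga2, Hmga1 and Igf2bp2 it was found with 20 of 11659, 13 of 11637 and 11 of 11656. A single library stood far below the rest at Igf2bp1 (wild-type replicate 1, 629 bp) and at Lin28b (Azin2-/- replicate 8, 0 bp).

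The let-7 loci were read in the same way, as the microRNAs that act on these genes. Mirlet7i held strong peaks within 5 kb in all 6 libraries, with 1694, 560 and 758 bp in Azin2-/- replicates 1, 2 and 8 and 2208, 1903 and 2069 bp in wild-type replicates 1, 2 and 2b, unscaled. The wild-type values all lie above the Azin2-/- ones, an order found at 2.49% of protein-coding loci in unscaled cover and 4.93% in scaled cover. Those shares are of loci that reached the minimum cover, whereas the let-7 loci were read without one. Mirlet7e was covered in 5 libraries, with none in Azin2-/- replicate 8. Mirlet7b and Mirlet7c-2, whose windows share peaks, were covered in Azin2-/- replicates 1 and 2 alone, and Mirlet7a-1, Mirlet7a-2, Mirlet7c-1, Mirlet7d and Mirlet7f-1 in none. Because microRNA loci were not among the 11670 protein-coding loci tested, no test is given for them.

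None of the genes that make or clear let-7 passed the test. Of 15 such genes 13 were measured, with a median log2 difference of 0.14 and 8 positive, and none at an unadjusted p under 0.05. Drosha, the nuclear microRNA processing enzyme, stood at 0.88 (limma adjusted p = 0.798) and Syncrip, an RNA-binding protein, at -0.38 (adjusted p = 0.838). Without wild-type replicate 1 they stood at 0.15 and -0.19. Of 30 let-7 target genes 24 were measured, none passed, also at an unadjusted p under 0.05, and the median was 0.03 with 13 positive. Arid3b, a DNA-binding protein, stood at 1.14 (limma adjusted p = 0.771; 0.67 without wild-type replicate 1) and Thbs1, a secreted matrix glycoprotein, at -1.14 (adjusted p = 0.782).

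In the wider fetal growth program 20 of 26 genes were measured and none passed by limma. The median was 0.19, with 13 positive and 3 at an unadjusted p under 0.05, all higher, against 4.34% higher and 2.13% lower over all loci. Igf2, the fetal growth factor whose message IGF2BP proteins bind, had 3951, 3403 and 2200 bp of scaled cover in Azin2-/- replicates 1, 2 and 8 and 0, 0 and 1200 bp in wild-type replicates 1, 2 and 2b. Every Azin2-/- library lay above every wild-type one, with a log2 difference of 2.26 ± 0.53 (SE; limma adjusted p = 0.743). The unscaled endothelial and muscle marker sums given above were higher in the same libraries, and their part in the Igf2 value was not tested. Dlk1, a preadipocyte surface protein and imprinted growth regulator, stood at 1.45 (adjusted p = 0.758). In the other direction stood Igf1r, the IGF receptor, at -0.51 (limma adjusted p = 0.794). E2f3, a cell-cycle transcription factor, stood at -0.60 (limma adjusted p = 0.787), and at -0.36 without wild-type replicate 2. Both had all 3 Azin2-/- libraries below all wild-type ones. In this list 1 measured locus was separated higher and 2 lower, against 6.72% and 4.93% of all loci.

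Transcripts known to be bound by IGF2BP proteins gave 10 measured loci of 15, with 3 positive, a median of -0.18 and none passing. At a limma unadjusted p under 0.05, 2 were higher (Igf2, also in the fetal growth list, and Lamb2), against 4.34% of all loci. Beside Igf2, Lamb2, a laminin chain, stood at 1.19 (limma adjusted p = 0.762; 0.67 without wild-type replicate 2), and Actb, the beta-actin gene whose message IGF2BP1 carries, at -0.74 (adjusted p = 0.778). Partners and targets of HMGA proteins gave 16 of 17, with 8 positive, a median of 0.01 and none passing. At a limma unadjusted p under 0.05, 2 were lower, against 2.13% of all loci. Cebpb, an early adipogenic transcription factor, had 1511, 984 and 1309 bp in Azin2-/- replicates 1, 2 and 8 and 3889, 4407 and 2092 bp in wild-type replicates 1, 2 and 2b. All wild-type libraries were higher, at a log2 difference of -1.12 (limma adjusted p = 0.743). Of the 16 measured, 2 were separated higher in Azin2-/- and 2 lower, against 6.72% and 4.93% of all loci. Snai1, a repressor gene that HMGA2 activates, stood at -0.98 (adjusted p = 0.758; -0.63 without Azin2-/- replicate 2) and the cyclin gene Ccna2 at 1.21 (adjusted p = 0.778).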

How the data were processed

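H3K27ac ChIP-seq peak lists of 6 libraries were used, and the 6 matching input libraries were not analysed here. The genome build was GRCm38 (mm10), per the submitters' processing notes. For the aligner, the peak caller and duplicates, tools and settings were not given in the sources used here. For each peak the deposited lists give a score, a fold ratio over local background, a −log10 p-value and a −log10 q-value. These values, all made by the authors, served to rank, select and describe peaks inside each list. Peaks selected by rank or by a q threshold were compared between lists as covered length, so the genotype comparisons depend on these values. Read totals are not given, so depth is unknown; a background level was solved from each peak's fold and p under Poisson counts with a pseudocount of 1, as a description only.

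The 30000 peaks of smallest p per library on chromosomes 1 to 19 and X were kept. Their covered length over each gene with 5 kb flanks was multiplied so that all libraries had the same total, and log2 was taken after adding 500 bp. Loci with a mean of at least 500 bp were tested with limma 3.58.1 in R 4.3.3 (Benjamini-Hochberg, 0.05). The procedure was tested on simulated data with known changes, and at each locus's own spread it missed most of them. A locus that did not pass is therefore not shown to be unchanged. Sequences and start sites came from RefSeq tables on GRCm38.p6. The genes and lists were chosen with earlier results of these data known. For each list the rule named the 2 members of smallest p in each direction; not every gene it names is printed, and those printed were picked with their values seen. Some named genes are not reported here. Alternatives were other list lengths and q thresholds, windows, pseudocounts, minimums and scalings, windows around summits, a replicate block, averaged wild-type replicates 2 and 2b, and each library left out. Joining peaks within 500 bp was added after seeing the data.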

Additional observations from a re-analysis of the deposited data

How the results depend on the processing

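Loci passing limma numbered 0 in each direction, and 22 higher and 4 lower at a q of 0.01 or less, 41 and 16 in windows of 250 bp around summits, and 10 and 1 with the replicate block. That block used libraries 1 and 2 of each genotype alone, with 1 residual degree of freedom. Same-numbered libraries correlated at -0.04 and 0.116 in their deviations, and other-numbered ones at -0.019 and -0.051. So few correlations cannot settle whether the numbers pair the libraries. Genes of the 7 with a strong peak in every library fell from 5 to 3 in the 15000 strongest peaks, 2 at a q of 0.01 or less and 0 in the 5000 strongest. Genes higher in all Azin2-/- libraries fell from 2 to 1, Igf2bp1, at a q of 0.01 or less, in the gene span alone, with 20 kb each side, with peaks within 500 bp joined and in summit windows. In the 5000 strongest they were Hmga1, whose wild-type start peaks fell outside that cutoff, and Igf2bp1, with Igf2bp3 no longer among them. They fell to 0 in the 60000 strongest, in all deposited peaks and without scaling. With 1 library left out they numbered 2 to 4 (4 without Azin2-/- replicate 8, with Lin28a and Lin28b). Genes lower then numbered 0 to 1 (Hmga1, without Azin2-/- replicate 1). With fewer libraries such an order arises more easily by chance. Except without scaling, the share over all loci was not computed in these alternatives, so the counts cannot be set against it. Over 23 alternatives Igf2bp1 stayed positive (0.18 to 2.50), Igf2bp3 turned once (-0.06, all deposited peaks), and Hmga1, Hmga2, Igf2bp2 and Lin28b changed sign in 5, 5, 5 and 6.

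Among list genes, in all deposited peaks the sign turned for Xpo5 (-0.02), Khsrp (0.38), Cdk6 (-0.09), E2f3 (0.01), Lamb2 (-0.34), Ccnb2 (-0.09), Hmgxb4 (0.04), Carhsp1 (-0.62) and Cirbp (-0.34). It also turned for E2f3 in the 5000 strongest (0.18), for Hmgxb4 in summit windows (0.14), and for Cirbp in the replicate block (-0.14) and without wild-type replicate 2b (-0.14; range with 1 library left out -0.14 to 0.54). Igf2 passed with the replicate block (limma adjusted p = 0.023) and Hmg20b in summit windows (0.0159). The cause was not tested. Without scaling the median of all loci was 0.16.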

Other observations

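Relatives of these genes outside the fetal program were read from a pair of further lists. Of 12 other high mobility group genes 10 were measured and none passed by limma, with 4 positive a median log2 difference of -0.08, against 0.07 over all loci, and 3 higher at an unadjusted p under 0.05 (4.34% of all loci). Hmg20b, a subunit of a histone demethylase complex, had 3309, 4840 and 3139 bp of scaled cover in Azin2-/- replicates 1, 2 and 8 and 993, 674 and 1267 bp in wild-type replicates 1, 2 and 2b. All Azin2-/- libraries were higher, at a log2 difference of 1.53 ± 0.34 (SE; limma adjusted p = 0.743). Of the 10 measured, 3 were separated higher in Azin2-/- and 0 lower, against 6.72% and 4.93% of all loci. Hmgb2, a chromatin protein of dividing cells, had 1728, 1208 and 1855 bp against 0, 0 and 450 bp, a difference of 1.75 (adjusted p = 0.743). Hmgxb4 stood at -0.45 (adjusted p = 0.819; -0.26 without Azin2-/- replicate 2).

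Of 15 cold shock and related RNA-binding genes 13 were measured and none passed, with 4 positive and a median of -0.18. At a limma unadjusted p under 0.05, 1 was higher and 1 lower, against 4.34% and 2.13% of all loci. Ybx1, a cold shock protein that binds messages, had 1252, 920 and 1344 bp in Azin2-/- replicates 1, 2 and 8 and 3239, 2323 and 2136 bp in wild-type replicates 1, 2 and 2b. All wild-type libraries were higher, at a log2 difference of -0.87 (limma adjusted p = 0.744). Of the 13 measured, 1 was separated higher in Azin2-/- and 3 lower, against 6.72% and 4.93% of all loci. Carhsp1, another cold shock domain gene, stood at 1.42 (adjusted p = 0.758).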
